A study of Mus musculus with 9 samples.

Results

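The genes described here encode inhibitory checkpoint receptors and their ligands other than CTLA-4, the checkpoint that the treatment blocked. They were chosen by name: Pdcd1 (PD-1), Cd274 (PD-L1), Pdcd1lg2 (PD-L2), Lag3 (LAG-3), Havcr2 (TIM-3), Tigit, Btla, Vsir (VISTA), Cd96 and Cd226, 10 of the 25124 genes listed in the deposited table. Each was compared across 9 RNA sequencing libraries of whole ear skin from C57BL/6 mice, taken on day 8. In 4 libraries the skin had been associated with Staphylococcus epidermidis strain LM087 and the mice had also received an anti-CTLA-4 antibody, and in 5 libraries the skin had been associated with the same bacterium alone. All 9 libraries therefore carried the bacterium, and skin without it or with the antibody alone was not analysed here. The labels state neither the age nor the sex of the mice. Nothing in the labels says that the numbered replicates were separate mice or cultures, so p-values measure the spread between these libraries, which may be technical.

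Checkpoint receptors are surface proteins of T cells, natural killer cells and some myeloid cells that dampen activation when they meet a ligand on a neighbouring cell. PD-1 binds PD-L1 and PD-L2, which antigen-presenting cells and, after interferon-gamma, many tissue cells carry. TIGIT and CD96 compete with the activating receptor CD226 for ligands of the nectin family, and BTLA binds the tumour necrosis factor receptor family member HVEM. TIM-3 binds galectin-9 and other ligands, and VISTA acts both as a ligand and as a receptor on myeloid and T cells. In skin they are found mainly on T cells, natural killer cells and myeloid cells, while PD-L1 can also be induced on keratinocytes.

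Levels are given as TPM, as the authors deposited them. The length behind these values was the span of the gene on the genome, introns included, so a TPM here is a level per kilobase of gene span and a gene with long introns has a low value for the same number of transcripts. Because value times span was a whole multiple of a constant of each library, the number of reads behind each value could be computed. The 4 anti-CTLA-4 libraries held 10213770 to 13868667 reads over the listed genes, a read being counted in each gene span it fell in, and the 5 libraries of the bacterium alone 10914654 to 13774467 reads. The tissue's markers were present, with summed TPM of 19147 to 22505 with anti-CTLA-4 and 21355 to 26837 with the bacterium alone over 6 keratinocyte markers. Over 5 fibroblast markers the sums were 1103 to 1385 TPM with anti-CTLA-4 and 973 to 1475 TPM with the bacterium alone.

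The stretch before the start of the gene, where its promoter lies, is printed for the 3 genes that were higher in either test below and carry a match to a motif of interferon regulatory factors or of AP-1, the transcription factors that act downstream of interferon and of T cell activation. The sequences come from RefSeq on GRCm38.p6, and the set used here held 8 of the 10 genes. Each gives the 250 bases before the start site, 5′ to 3′ on the strand of the gene. Capitals mark the match: GAAANNGAA, the core of an interferon regulatory factor element, in Cd274 and Btla, and TGANTCA, an AP-1 element, in Havcr2. The regions are chr19:29367188-29367437 (plus strand) for Cd274, chr16:45224087-45224336 (plus strand) for Btla and chr11:46454681-46454930 (plus strand) for Havcr2.
Cd274: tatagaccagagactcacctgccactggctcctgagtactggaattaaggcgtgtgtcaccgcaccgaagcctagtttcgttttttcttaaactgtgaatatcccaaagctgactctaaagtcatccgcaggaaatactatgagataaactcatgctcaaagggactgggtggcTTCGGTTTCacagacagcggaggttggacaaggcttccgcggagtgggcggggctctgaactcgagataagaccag
Btla: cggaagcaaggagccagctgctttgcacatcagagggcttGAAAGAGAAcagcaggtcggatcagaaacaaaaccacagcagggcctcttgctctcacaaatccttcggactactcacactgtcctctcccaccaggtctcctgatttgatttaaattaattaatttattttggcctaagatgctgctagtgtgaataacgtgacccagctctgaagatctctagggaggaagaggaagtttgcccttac
Havcr2: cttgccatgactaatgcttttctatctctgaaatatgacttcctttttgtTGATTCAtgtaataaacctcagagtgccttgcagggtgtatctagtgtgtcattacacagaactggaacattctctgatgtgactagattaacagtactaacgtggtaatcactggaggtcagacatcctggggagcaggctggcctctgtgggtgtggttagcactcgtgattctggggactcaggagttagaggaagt

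Both strands were searched, over windows that also held the 50 bases after the start, and the Cd274 match lies on the opposite strand. It begins 76 bases before the start of Cd274, the Btla match 210 bases before and the Havcr2 match 200 bases before. Over 32851 promoter windows of the same length, 8.56% held GAAANNGAA and 7.81% held TGANTCA. The interferon-gamma activated site TTCNNNGAA, found in 8.30% of windows, had 1 match among the 8 genes, in Cd96, which also held 1 GAAANNGAA match. Also searched were GGAAA, the core of an NFAT element, held by 61.3% of windows and by 5 of the 8 genes, and TGTGGT, the core of a RUNX element, held by 16.8% of windows and by 5 of the 8 genes. No match overlapped another in the 3 printed stretches. A match describes these letters and not a bound site.

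Of the 10 genes, 4 rose in skin given anti-CTLA-4 by the test across all genes, and 0 fell. These were Vsir, Havcr2, Cd226 and Btla, and each was also called whichever of the 9 libraries was left out (limma adjusted p up to 0.0483). The test was limma on log2(TPM + 1) over the 15704 genes that reached 1 TPM in 4 or more libraries, with Benjamini-Hochberg adjustment and a threshold of 0.05, and fold changes on that scale understate the change of genes with low values. Of all genes tested, 7.16% rose and 4.48% fell. An unadjusted limma p under 0.05 was reached by 4145 genes, 2133 of them higher and 2012 lower. At that unadjusted threshold 6 of the 7 tested members were higher and 0 lower. Lag3, Tigit and Cd274 were tested and did not pass, and Pdcd1, Pdcd1lg2 and Cd96 lay below the expression filter. The median log2 fold change was 0.67 over the 7 tested members and -0.01 over all genes tested. In a second fit, limma voom on the computed reads of 16500 genes, added after the data were seen, 8 of the 10 genes were higher and 0 lower, beside 11.5% of all genes higher and 7.30% lower. The 4 genes above were among the 8, with log2 fold changes of 0.66 ± 0.08 for Vsir, 0.94 ± 0.14 for Havcr2, 1.27 ± 0.17 for Cd226 and 1.03 ± 0.19 for Btla (SE; limma voom adjusted p up to 0.00235). The median log2 fold change in that fit was 0.90 over the 10 genes and 0.02 over all genes. For 5 of the 10 genes, Pdcd1, Havcr2, Btla, Vsir and Cd226, every anti-CTLA-4 library lay above every library of the bacterium alone in TPM, beside 6.24% of the 22100 genes above 0 TPM in any library.

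**Figure D1:**
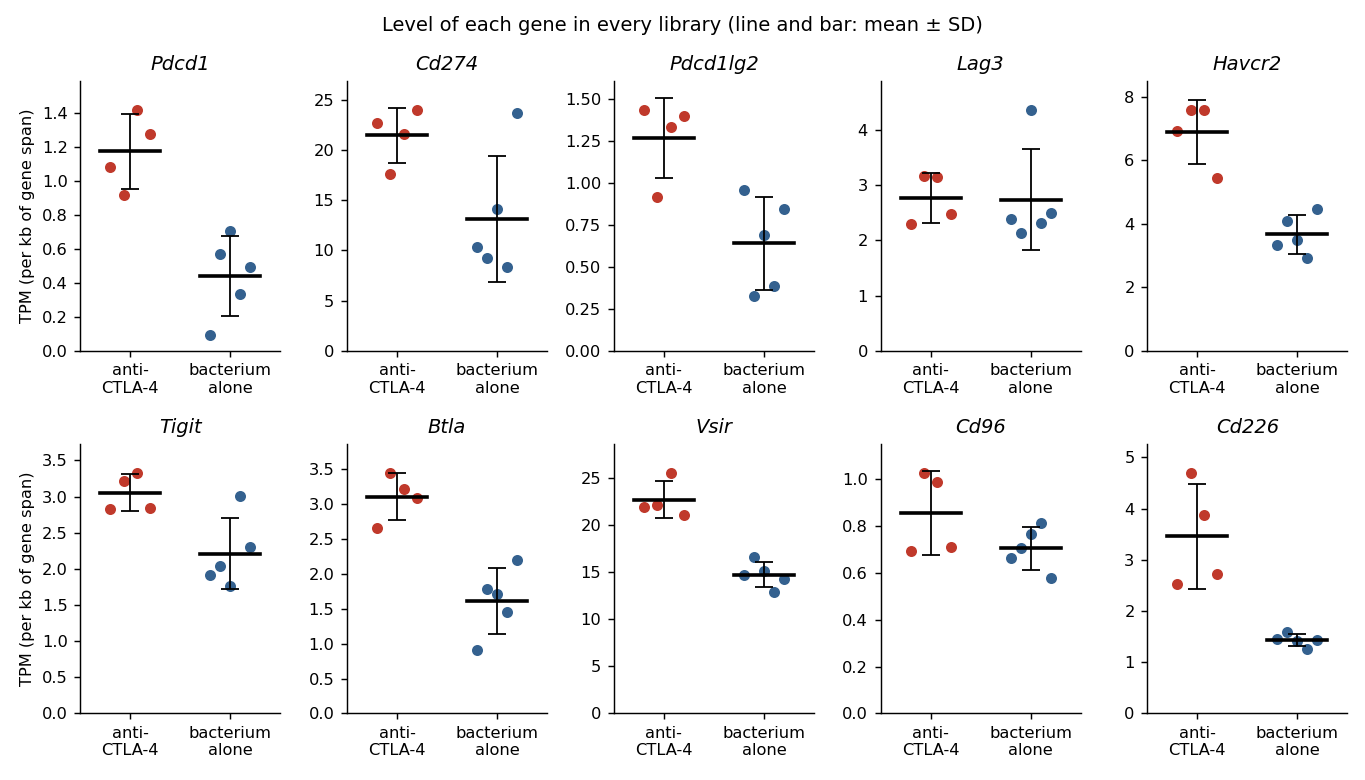
TPM per kilobase of gene span (vertical axis, each from 0) of the 10 genes in the 4 anti-CTLA-4 libraries (red, left) and the 5 libraries of the bacterium alone (blue, right). Lines and bars give the mean ± SD; the groups do not overlap for Pdcd1, Havcr2, Btla, Vsir and Cd226, and 1 library of the bacterium alone stands high for Cd274 (23.7 TPM) and for Lag3 (4.37 TPM).

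**Figure D2:**
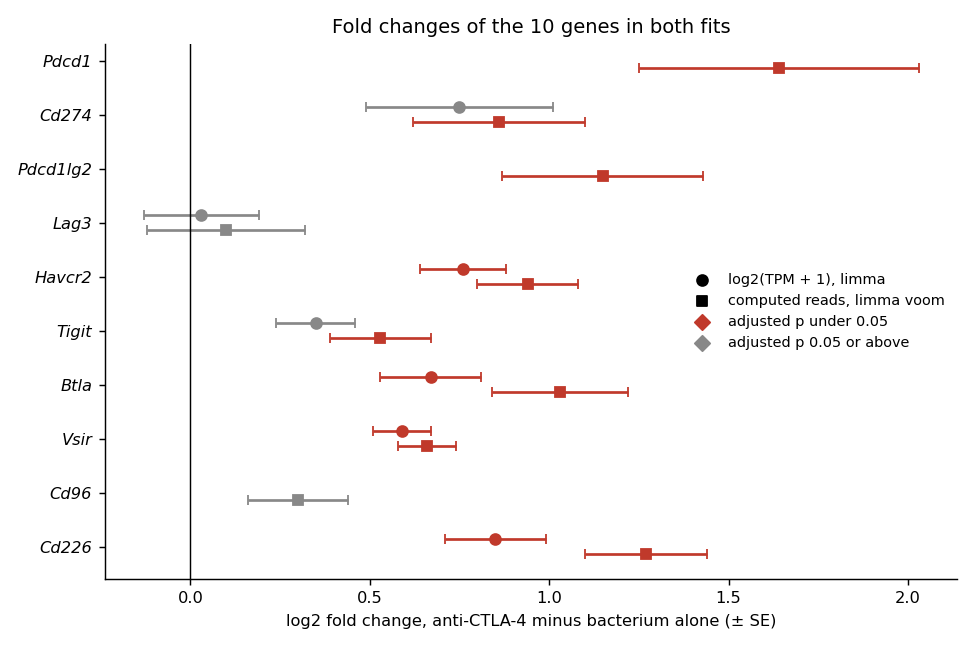
Log2 fold change ± SE of each gene, anti-CTLA-4 minus bacterium alone (horizontal axis), from limma on log2(TPM + 1) (circles, 7 genes) and limma voom on computed reads (squares, 10 genes). Red marks an adjusted p under 0.05; voom fold changes run from 0.10 for Lag3 to 1.64 for Pdcd1.

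Pdcd1 encodes PD-1, the receptor that activated T cells display and that recruits the phosphatase SHP-2 (mm10 chromosome 1, 94038305 to 94052553, minus strand). It had 1.08, 0.913, 1.42 and 1.28 TPM in the anti-CTLA-4 libraries, against 0.0910, 0.571, 0.706, 0.334 and 0.495 TPM with the bacterium alone. The groups did not overlap, and replicate 1 of the bacterium alone was the lowest library. Behind these values were 21, 19, 34 and 33 reads with anti-CTLA-4 and 2, 14, 16, 7 and 10 reads with the bacterium alone. The count of 2 has an exact 95% Poisson interval of 0.242 to 7.22 reads, which covers counting error only. Pdcd1 averaged 1.17 ± 0.220 TPM with anti-CTLA-4 and 0.439 ± 0.237 TPM with the bacterium alone (SD, n = 4 and n = 5), below the filter of the main test. An exact two-sided permutation test of mean log2(TPM + 1) gave p = 0.0159, the smallest p that 4 against 5 libraries allow. In limma voom on reads its log2 fold change was 1.64 ± 0.39 (SE; adjusted p = 0.0116), and it passed in all 9 fits that left out 1 library.

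Cd274 encodes PD-L1, the ligand of PD-1 that interferon-gamma induces (mm10 chromosome 19, 29367438 to 29388094, plus strand). Its levels were 22.7, 17.6, 21.6 and 24.0 TPM with anti-CTLA-4, against 10.3, 9.28, 14.1, 8.38 and 23.7 TPM with the bacterium alone. All 4 anti-CTLA-4 libraries were above 4 of the 5 libraries of the bacterium alone, and replicate 5 of the bacterium alone was above 3 of the 4 anti-CTLA-4 libraries. The means were 21.5 ± 2.75 TPM with anti-CTLA-4 and 13.2 ± 6.29 TPM with the bacterium alone (SD, n = 4 and n = 5). The log2 fold change of 0.75 ± 0.26 (SE) did not pass limma (adjusted p = 0.0950). Without replicate 5 of the bacterium alone it was 0.98 and passed limma (adjusted p = 0.00777). In limma voom on reads it passed (0.86 ± 0.24; adjusted p = 0.0235), and this call was lost on leaving out anti-CTLA-4 replicate 1, 3 or 4 or bacterium-alone replicate 1, 2 or 4 (limma voom adjusted p up to 0.0671). GENCODE M21 lists an antisense gene inside the Cd274 span, and the deposited counts did not separate strands, so reads of the pair cannot be told apart.

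Of 11 genes listed for the control of PD-L1, most of them of the interferon-gamma route, 6 had their highest level with the bacterium alone in replicate 5, 3 in replicate 4, 2 in replicate 1 and 0 in replicates 2 and 3. Irf1, a transcription factor of the family whose motif is printed above for Cd274, had 65.7, 38.9, 58.1 and 88.5 TPM with anti-CTLA-4, against 40.7, 24.5, 51.5, 22.8 and 65.7 TPM with the bacterium alone. The groups overlapped, replicates 3 and 5 were the highest with the bacterium alone and replicate 4 was the lowest, the same order at the ends as for Cd274. Irf1 did not pass limma (log2 fold change 0.66, adjusted p = 0.255). The summed TPM of 6 neutrophil markers was likewise highest in replicates 3 and 5 with the bacterium alone. It was 1516 to 4464 with anti-CTLA-4 and 113, 457, 1340, 110 and 1482 with the bacterium alone. Of these markers 3 rose in limma and 5 in limma voom. Most of the sum came from S100a8 (mean 1904 TPM with anti-CTLA-4 and 476 with the bacterium alone) and S100a9 (630 and 204). Both passed limma voom but not limma (limma adjusted p = 0.0821 and 0.115). Ly6g held 1 read in all with anti-CTLA-4 and 0 with the bacterium alone. The part of this sum in the Cd274 level was not tested. Of the 11 genes, 3 rose in limma and 0 fell, and limma voom called 5 higher and 0 lower. The 3 were Ifngr1 (70.4 ± 5.39 TPM with anti-CTLA-4 and 52.0 ± 6.85 with the bacterium alone; 0.44, limma adjusted p = 0.0246), which encodes a chain of the interferon-gamma receptor, the kinase gene Jak2 (0.34, limma adjusted p = 0.0173) and the hypoxia factor gene Hif1a (0.40, limma adjusted p = 0.0235). Cmtm6, which stabilises PD-L1 at the cell surface, had 45.1 ± 1.75 TPM with anti-CTLA-4 and 44.5 ± 1.09 TPM with the bacterium alone (SD, n = 4 and n = 5; limma adjusted p = 0.856).

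**Figure D3:**
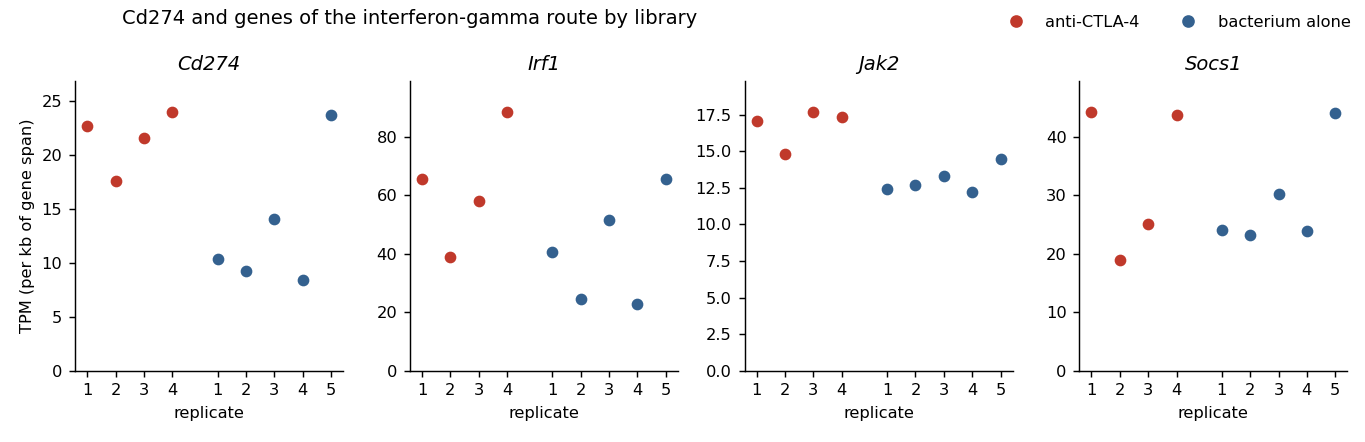
TPM per kilobase of gene span (vertical axes, from 0) of Cd274, Irf1, Jak2 and Socs1 in each library, with anti-CTLA-4 replicates 1 to 4 (red) left of bacterium-alone replicates 1 to 5 (blue). Replicate 5 of the bacterium alone is the highest of its group in all 4 panels, at 23.7 TPM for Cd274, 65.7 for Irf1, 14.5 for Jak2 and 44.1 for Socs1. Irf1, Jak2 and Socs1 were picked from the 6 of 11 listed genes that were highest in that library. Of the rest, 3 were highest in replicate 4 and 2 in replicate 1.

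Pdcd1lg2, the gene next to Cd274 that encodes the second PD-1 ligand PD-L2, spans 62.0 kb (mm10 chromosome 19, 29410919 to 29472927, plus strand). It had 1.43, 0.916, 1.33 and 1.40 TPM with anti-CTLA-4, against 0.956, 0.328, 0.690, 0.383 and 0.842 TPM with the bacterium alone. The groups overlapped by 1 library on each side. The means of 1.27 ± 0.239 TPM with anti-CTLA-4 and 0.640 ± 0.277 TPM with the bacterium alone (SD, n = 4 and n = 5) gave an exact two-sided permutation p of 0.0317. That p rose above the threshold in 7 of the 9 tests that left out 1 library, the exceptions being anti-CTLA-4 replicate 2 and bacterium-alone replicate 1, and reached 0.0714. In limma voom, on 83 to 157 reads with anti-CTLA-4 and 35 to 91 reads with the bacterium alone, the log2 fold change was 1.15 ± 0.28 (adjusted p = 0.0123). An antisense gene in GENCODE M21 overlaps the end of Pdcd1lg2, with the same limit as for Cd274. Among the other partners of the PD-1 ligands, Cd80, a costimulatory protein that also binds PD-L1, had 1.94 ± 0.265 TPM with anti-CTLA-4 and 1.35 ± 0.312 TPM with the bacterium alone (SD, n = 4 and n = 5; limma adjusted p = 0.111). Rgmb, which encodes a partner of PD-L2, had 21.9 ± 1.30 TPM with anti-CTLA-4 and 27.6 ± 3.35 TPM with the bacterium alone (limma adjusted p = 0.0518). On computed reads, limma voom called Cd80 higher (adjusted p = 0.0442) and Rgmb lower (adjusted p = 0.0162).

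Lag3, which encodes a CD4-related receptor of activated T cells that binds MHC class II, did not differ detectably (mm10 chromosome 6, 124904359 to 124911705, minus strand). It had 2.30, 3.17, 3.15 and 2.48 TPM with anti-CTLA-4, against 2.40, 2.13, 4.37, 2.31 and 2.50 TPM with the bacterium alone. All 4 anti-CTLA-4 values lay within the range of the bacterium alone, whose replicate 3 was the highest of the 9. The log2 fold change was 0.03 ± 0.16 in limma (SE; adjusted p = 0.919) and 0.10 ± 0.22 in limma voom (adjusted p = 0.809), on 23 to 39 reads with anti-CTLA-4 and 25 to 51 with the bacterium alone. Lgals3, which encodes galectin-3, a ligand of LAG-3, had 212 ± 23.1 TPM with anti-CTLA-4 and 243 ± 9.23 TPM with the bacterium alone (SD, n = 4 and n = 5; limma adjusted p = 0.132). The ligand genes Fgl1 and Clec4g lay below the filter.

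Havcr2 encodes TIM-3, a receptor of T cells and of macrophages and dendritic cells (mm10 chromosome 11, 46454931 to 46481254, plus strand). It rose, with 6.93, 7.59, 7.58 and 5.44 TPM with anti-CTLA-4, against 3.34, 4.10, 3.49, 2.92 and 4.48 TPM with the bacterium alone. Every anti-CTLA-4 library was above the highest library of the bacterium alone. The means were 6.88 ± 1.01 TPM with anti-CTLA-4 and 3.67 ± 0.622 TPM with the bacterium alone (SD, n = 4 and n = 5), a log2 fold change of 0.76 ± 0.12 (SE; limma adjusted p = 0.00585). The gene for its ligand galectin-9, Lgals9, rose in the same direction, at 15.1 ± 1.41 TPM with anti-CTLA-4 and 8.38 ± 1.31 TPM with the bacterium alone (0.78 ± 0.11; limma adjusted p = 0.00372). Ceacam1, another TIM-3 ligand gene, rose by 0.45 (limma adjusted p = 0.0485) although its groups overlapped. The alarmin gene Hmgb1 had 42.1 ± 5.00 TPM with anti-CTLA-4 and 41.8 ± 2.24 TPM with the bacterium alone (SD, n = 4 and n = 5; limma adjusted p = 0.970).

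Tigit, Cd96 and Cd226 encode receptors that share the nectin-family ligand CD155, and CD226 is the activating one. Cd226 rose (mm10 chromosome 18, 89197427 to 89270327, plus strand). It had 2.52, 4.70, 3.88 and 2.73 TPM with anti-CTLA-4, against 1.45, 1.59, 1.41, 1.26 and 1.44 TPM with the bacterium alone. The groups were separate, and the anti-CTLA-4 libraries spread more widely, with means of 3.46 ± 1.02 TPM with anti-CTLA-4 and 1.43 ± 0.117 TPM with the bacterium alone (SD, n = 4 and n = 5). The log2 fold change was 0.85 ± 0.14 in limma (SE; adjusted p = 0.00621).

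Tigit, the inhibitory receptor with the higher affinity for CD155, did not pass limma on TPM (mm10 chromosome 16, 43648861 to 43664184, minus strand). Its levels were 2.83, 3.22, 3.33 and 2.84 TPM with anti-CTLA-4, against 1.91, 2.05, 1.77, 3.01 and 2.30 TPM with the bacterium alone. Replicate 4 of the bacterium alone was above the lower 2 of the anti-CTLA-4 libraries, and the other 4 were below all of them. The log2 fold change was 0.35 ± 0.11 (SE; limma adjusted p = 0.0795), and 0.43 without that replicate (limma adjusted p = 0.0197). On reads, 59 to 86 with anti-CTLA-4 and 43 to 68 with the bacterium alone, limma voom gave 0.53 ± 0.14 (adjusted p = 0.0218), a call lost on leaving out anti-CTLA-4 replicate 2 or 3 or bacterium-alone replicate 1 or 2 (limma voom adjusted p up to 0.0581).

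Cd96, the third receptor, had the lowest level per kilobase of span of the 10 genes with anti-CTLA-4 (mm10 chromosome 16, 46035657 to 46120248, minus strand). It had 0.695, 1.03, 0.989 and 0.710 TPM with anti-CTLA-4, against 0.663, 0.707, 0.766, 0.811 and 0.576 TPM with the bacterium alone. The groups overlapped, with 2 anti-CTLA-4 libraries above all others (exact two-sided permutation p = 0.175). In limma voom its log2 fold change was 0.30 ± 0.14 (adjusted p = 0.155).

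The ligand genes of these 3 receptors fell or did not pass. Nectin4, a TIGIT ligand of epithelial cells, fell to 37.0 ± 2.07 TPM with anti-CTLA-4, against 48.8 ± 4.38 TPM with the bacterium alone (SD, n = 4 and n = 5; log2 fold change -0.39 ± 0.07, limma adjusted p = 0.0109). Nectin1, a CD96 ligand in the mouse, fell to 32.0 ± 3.51 TPM with anti-CTLA-4, against 40.4 ± 0.588 TPM with the bacterium alone (-0.33 ± 0.07, limma adjusted p = 0.0173). In both genes every anti-CTLA-4 library was below every library of the bacterium alone. Pvr, which encodes CD155, had 6.93 ± 1.06 TPM with anti-CTLA-4 and 6.01 ± 0.641 TPM with the bacterium alone (limma adjusted p = 0.339). Nectin2 had 8.25 ± 0.767 TPM with anti-CTLA-4 and 9.62 ± 0.724 TPM with the bacterium alone (limma adjusted p = 0.127).

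Btla, an inhibitory receptor of lymphocytes and dendritic cells, rose (mm10 chromosome 16, 45224337 to 45252895, plus strand). It had 2.65, 3.45, 3.22 and 3.09 TPM with anti-CTLA-4, against 0.913, 1.79, 1.72, 1.45 and 2.20 TPM with the bacterium alone. The groups did not overlap, and replicate 1 of the bacterium alone was the lowest. The means were 3.10 ± 0.336 TPM with anti-CTLA-4 and 1.61 ± 0.475 TPM with the bacterium alone (SD, n = 4 and n = 5), a log2 fold change of 0.67 ± 0.14 (SE; limma adjusted p = 0.0172). Its ligand gene Tnfrsf14, which encodes HVEM, rose too, at 13.3 ± 2.06 TPM with anti-CTLA-4 and 7.61 ± 1.19 TPM with the bacterium alone (0.73 ± 0.13; limma adjusted p = 0.00860). Cd160, another receptor for HVEM, had 2.86 ± 0.115 TPM with anti-CTLA-4 and 2.37 ± 0.426 TPM with the bacterium alone (SD, n = 4 and n = 5; limma adjusted p = 0.211).

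Vsir encodes VISTA, which myeloid cells and resting T cells carry, and had the smallest p of the 7 tested members (mm10 chromosome 10, 60346851 to 60372684, plus strand). Its levels were 22.0, 22.1, 25.6 and 21.1 TPM with anti-CTLA-4, against 14.7, 16.6, 15.1, 12.9 and 14.3 TPM with the bacterium alone. The groups were well apart, and the means were 22.7 ± 1.97 TPM with anti-CTLA-4 and 14.7 ± 1.34 TPM with the bacterium alone (SD, n = 4 and n = 5). The log2 fold change was 0.59 ± 0.08 (SE; limma adjusted p = 0.00348). Vsir lies inside Cdh23, a gene of the opposite strand, and counting over the whole span put Vsir reads into Cdh23 as well. Only 92 to 141 reads with anti-CTLA-4 and 56 to 94 reads with the bacterium alone fell in the rest of Cdh23, which spans 394 kb, while Vsir itself had 772 to 1113 reads with anti-CTLA-4 and 491 to 739 with the bacterium alone. Selplg, which encodes PSGL-1, a partner of VISTA on T cells, had the smallest p among the binding partners, with 25.0 ± 3.80 TPM with anti-CTLA-4 and 11.0 ± 1.64 TPM with the bacterium alone (1.11 ± 0.13; limma adjusted p = 0.00220). Igsf11, another VISTA partner, lay below the filter.

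Per kilobase of span, the 10 genes fell into a high pair and a lower set within each group. With anti-CTLA-4, Vsir (22.7 TPM) and Cd274 (21.5) overlapped at the top, Havcr2 (6.88) stood apart below them, and Cd226 (3.46), Btla (3.10), Tigit (3.05) and Lag3 (2.77) overlapped with their neighbours. Pdcd1lg2 (1.27), Pdcd1 (1.17) and Cd96 (0.855) followed, apart from Lag3 and overlapping with each other in that order. With the bacterium alone, still per kilobase of span, the order was Vsir, Cd274, Havcr2, Lag3, Tigit, Btla, Cd226, Cd96, Pdcd1lg2 and Pdcd1, with gaps free of overlap between Cd274 and Havcr2 and between Cd226 and Cd96. The order depends on the length used. Per kilobase of the longest GENCODE M21 transcript, Cd274 (15.8 ± 2.19 reads) and Vsir (15.6 ± 0.837 reads) again overlapped at the top with anti-CTLA-4, and Lag3 (1.31 ± 0.184) and Pdcd1 (1.11 ± 0.184) were the lowest, below Cd96 (4.27 ± 0.801) and Pdcd1lg2 (5.88 ± 1.15). On that scale Lag3 (1.27 ± 0.448) and Pdcd1 (0.410 ± 0.226) were the lowest with the bacterium alone as well. Vsir (9.90 ± 1.06) and Cd274 (9.54 ± 4.80) overlapped at the top, and Cd274 also overlapped with the next gene, Tigit (4.62 ± 0.882).

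Markers of several immune cell types differed between the groups alongside these genes. Of 12 T cell markers 9 rose in limma and 0 fell, and their summed TPM was 77.5 to 101 with anti-CTLA-4 and 32.8 to 44.6 with the bacterium alone. Of 12 monocyte and macrophage markers 11 rose and 0 fell, with sums of 960 to 1462 TPM with anti-CTLA-4 and 566 to 828 TPM with the bacterium alone. Of 8 dendritic cell markers 0 were called by limma, with sums of 25.6 to 30.2 TPM with anti-CTLA-4 and 24.3 to 35.1 TPM with the bacterium alone, although 3 were higher and 1 lower (Cd207) at an unadjusted p under 0.05 and Itgax alone passed limma voom (adjusted p = 0.0448). Both CD8 markers, Cd8a and Cd8b1, rose, and their sum was 11.4 to 22.0 TPM with anti-CTLA-4 and 0.848 to 3.92 TPM with the bacterium alone. Of 7 natural killer cell markers 3 were tested and 2 rose, with sums of 16.1 to 21.9 TPM with anti-CTLA-4 and 7.03 to 12.9 TPM with the bacterium alone. The 2 were Gzma and Klrk1, and Klrk1 alone had 12.6 ± 2.18 TPM with anti-CTLA-4 and 6.44 ± 1.63 TPM with the bacterium alone. Prf1 did not pass. The markers Ncr1, Klrb1c, Klra8 and Klre1 lay below the filter, and their groups overlapped. Of 5 B cell markers, cells that also carry BTLA, 1 was tested and rose, with sums of 3.03 to 3.70 TPM with anti-CTLA-4 and 1.66 to 2.61 TPM with the bacterium alone. Of 6 mast cell markers 3 rose and 0 fell, with sums of 261 to 269 TPM with anti-CTLA-4 and 154 to 223 TPM with the bacterium alone. Of 6 keratinocyte markers 1 rose in limma, Krt1 (0.96, limma adjusted p = 0.0245), and 0 fell, while limma voom also called Krt10 lower (adjusted p = 0.00852). No marker was at 0 in all libraries, and the part of these cells in the levels of the 10 genes was not tested. In whole skin, more cells of a type and more RNA per cell cannot be told apart.

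Relative to the summed T cell markers of the same library, 4 of the 10 genes were lower in every anti-CTLA-4 library. The level of Lag3 was 2.88, 3.59, 3.12 and 3.19% of the marker sum with anti-CTLA-4, against 6.15, 5.02, 9.80, 7.04 and 5.82% with the bacterium alone. No anti-CTLA-4 library reached the lowest of the bacterium alone. Tigit was also separate, at 3.54 ± 0.166% with anti-CTLA-4 and 5.65 ± 2.04% with the bacterium alone (SD, n = 4 and n = 5). Vsir was at 26.3 ± 1.28% with anti-CTLA-4 and 36.7 ± 2.86% with the bacterium alone. Cd96 was at 0.983 ± 0.129% with anti-CTLA-4 and 1.78 ± 0.416% with the bacterium alone. Beside these 4 of 10 genes, 68.2% of all 22100 genes above 0 TPM were lower in this way, the marker sum itself being higher with anti-CTLA-4. The groups overlapped for the other 6. Cd226 stood at 3.96 ± 0.951% with anti-CTLA-4 and 3.56 ± 0.287% with the bacterium alone. Btla stood at 3.60 ± 0.403% with anti-CTLA-4 and 3.99 ± 1.03% with the bacterium alone, and Pdcd1 at 1.36 ± 0.252% with anti-CTLA-4 and 1.07 ± 0.512% with the bacterium alone. The ratio of the means, anti-CTLA-4 over the bacterium alone, was 0.876 for Havcr2, 0.783 for Cd274 and 0.942 for Pdcd1lg2. Against Cd3e alone, a chain of the T cell receptor complex, the groups overlapped for Tigit, Vsir and Cd96, and Lag3 was the 1 of 10 genes still lower without overlap, beside 56.3% of all genes. On that scale Lag3 stood at 25.3 ± 3.11% with anti-CTLA-4 and 43.3 ± 16.5% with the bacterium alone. Cd226 was the 1 gene higher without overlap, beside 0.493% of all genes. It stood at 31.5 ± 8.85% with anti-CTLA-4 and 22.3 ± 2.27% with the bacterium alone. The gap was narrow, from 25.1% in the highest library of the bacterium alone to 25.7% in the lowest anti-CTLA-4 library. The highest anti-CTLA-4 library stood at 44.5%. Against the monocyte and macrophage marker sum, the groups overlapped for Vsir, at 1.85 ± 0.289% with anti-CTLA-4 and 2.15 ± 0.297% with the bacterium alone. They also overlapped for Havcr2, at 0.554 ± 0.0236% with anti-CTLA-4 and 0.536 ± 0.113% with the bacterium alone. Lag3 and Cd96 were lower without overlap on that scale. This marker sum was itself higher with anti-CTLA-4, and the share over all genes was not computed. The separation therefore shows nothing particular to Lag3 and Cd96. These ratios are descriptions and were not tested.

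**Figure D4:**
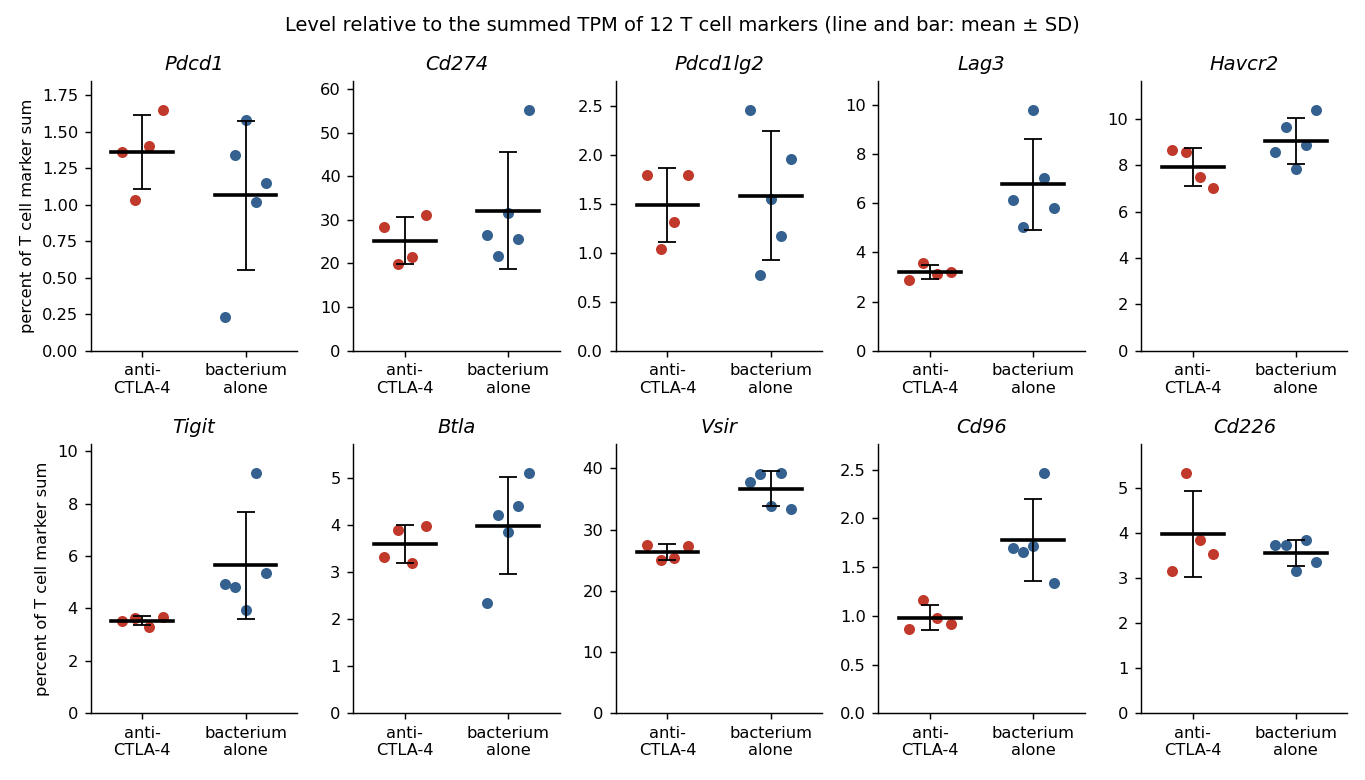
Level of each gene as a percent of the summed TPM of 12 T cell markers in the same library (vertical axes, from 0), with the 4 anti-CTLA-4 libraries (red) left of the 5 libraries of the bacterium alone (blue) and mean ± SD. Lag3, Tigit, Vsir and Cd96 lie lower in every anti-CTLA-4 library, and the other 6 genes overlap.

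Genes around the checkpoint axes moved in part. Of 14 tested binding partners, 4 rose (Selplg, Lgals9, Tnfrsf14 and Ceacam1) and 2 fell (Nectin4 and Nectin1), with a median log2 fold change of 0.09. Limma voom called 5 of 15 higher and 3 lower. Of 11 tested genes of downstream signalling, 4 rose and 0 fell, with a median of 0.10, and limma voom called 6 of 12 higher. Ptpn6, the phosphatase SHP-1 of blood cells, had 32.9 ± 3.97 TPM with anti-CTLA-4 and 20.7 ± 1.29 TPM with the bacterium alone (SD, n = 4 and n = 5; 0.64, limma adjusted p = 0.00344). Inpp5d, the lipid phosphatase SHIP1, rose by 0.59 (limma adjusted p = 0.00564), the adaptor gene Pag1 by 0.58 (limma adjusted p = 0.00448) and the adaptor gene Grb2 by 0.30 (limma adjusted p = 0.0193). Ptpn11, which encodes the widely expressed SHP-2 that PD-1 recruits, had 16.0 ± 1.16 TPM with anti-CTLA-4 and 18.0 ± 0.868 TPM with the bacterium alone (limma adjusted p = 0.121).

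Of 15 tested transcription factors linked to checkpoint receptor expression, 3 rose and 1 fell, with a median of -0.00, and limma voom called 5 of 17 higher and 2 lower. Batf, an AP-1 factor of activated T cells, had 2.25 ± 0.176 TPM with anti-CTLA-4 and 0.859 ± 0.253 TPM with the bacterium alone (0.81, limma adjusted p = 0.00334). Id2 rose by 0.45 (limma adjusted p = 0.0210) and Irf4 by 0.47 (limma adjusted p = 0.0449), while Prdm1, which keratinocytes of the sebaceous gland and epidermis also express, fell by 0.41 (limma adjusted p = 0.0427). Tox, a factor of exhausted T cells, had 1.94 ± 0.238 TPM with anti-CTLA-4 and 1.95 ± 0.182 TPM with the bacterium alone (SD, n = 4 and n = 5; limma adjusted p = 0.993). Of 8 tested other inhibitory receptors and B7 family genes, 5 rose and 0 fell, with a median of 0.29. Lair1, a collagen receptor of leukocytes, had 4.59 ± 1.06 TPM with anti-CTLA-4 and 1.26 ± 0.526 TPM with the bacterium alone (1.32, limma adjusted p = 0.00436). Sirpa, the macrophage receptor for CD47, had 40.5 ± 5.65 TPM with anti-CTLA-4 and 21.2 ± 1.74 TPM with the bacterium alone (0.89, limma adjusted p = 0.00227), and its ligand gene Cd47 rose by 0.26 (limma adjusted p = 0.0252). Cd244a rose by 0.28 (limma adjusted p = 0.0208), and Cd5 was the fifth that rose. Cd276, a B7 family ligand of tissue cells, had 5.62 ± 0.305 TPM with anti-CTLA-4 and 5.17 ± 0.572 TPM with the bacterium alone (limma adjusted p = 0.448).

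**Figure D5:**
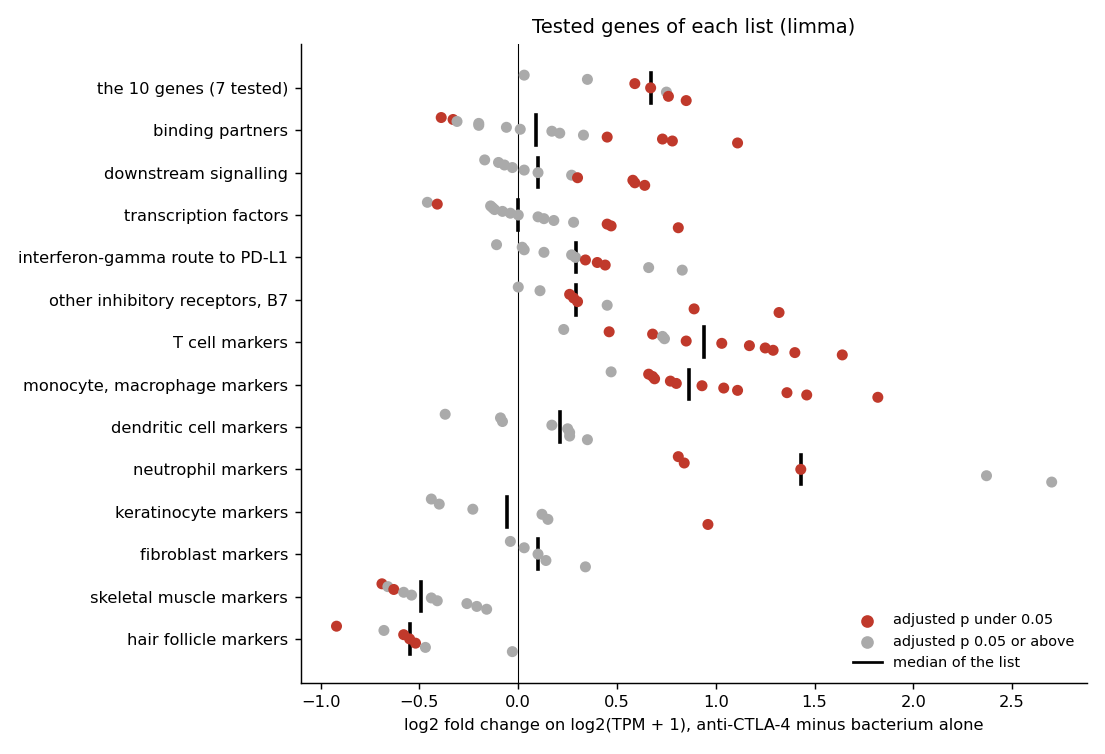
Log2 fold change on log2(TPM + 1), anti-CTLA-4 minus bacterium alone (horizontal axis), of each tested gene by list (rows), with red points for a limma adjusted p under 0.05 and a black line at the median of the list. The 7 tested checkpoint genes have a median of 0.67, T cell markers 0.94, monocyte and macrophage markers 0.87, binding partners 0.09 and hair follicle markers -0.55.

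Some skeletal muscle and hair follicle markers fell. Of 10 muscle markers 2 fell in limma and 6 in limma voom, with summed TPM of 928 to 1379 with anti-CTLA-4 and 1120 to 1789 with the bacterium alone. Of 7 tested hair follicle markers 4 fell, with sums of 48.0 to 59.8 TPM with anti-CTLA-4 and 74.9 to 103 TPM with the bacterium alone. With the muscle markers' mean as a covariate in limma, 0 of the 7 tested members and 0 of all genes were called higher, beside 3 members and 1212 genes higher at an unadjusted p under 0.05 and 1 of 10 members called by limma voom. The fold changes of Vsir, Havcr2, Cd226 and Btla were 0.48, 0.59, 0.63 and 0.46 (limma adjusted p of 0.161, 0.214, 0.232 and 0.403). With the hair follicle markers' mean as a covariate, Vsir (0.80) and Havcr2 (1.05) kept their calls, while Cd226 (1.11, limma adjusted p = 0.0630) and Btla (0.70, limma adjusted p = 0.269) did not, and 69 genes in all were called higher. The part of these tissues in the results was not tested further.

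The protein-coding genes whose log2(TPM + 1) followed a member most closely over the 9 libraries are given as a description, since the libraries share the group difference. For Havcr2 they were Klhl6 (Pearson r = 1.00), Itgb2, the beta chain of leukocyte integrins (0.99), and Il18r1, a chain of the interleukin-18 receptor (0.98). For Btla they were the interferon-induced gene Rsad2 (0.99), Gpr65 (0.98) and Sirpb1b (0.98), and for Cd226 they were Ptpn18 (0.99), Bin2 (0.98) and Rarres2 (0.97). For Cd274 they were Casp4, Slc7a11 and Socs3, a feedback inhibitor of cytokine signalling (0.98 each). For Vsir the closest was Cdh23 (1.00), which holds its reads, followed by Rinl and Tmem8 (0.99 each). Tigit (Eif2ak1 at 0.95, Zfp775 and Isg20 at 0.93) and Lag3 (Mcm8 and Lamtor3 at 0.91, Naif1 at 0.89) had less close followers.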

How the data were processed

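The authors deposited TPM per gene and library on mm10, and the submitters' processing notes name STAR and HOMER with no versions. Per the labels' protocols, libraries were made from 500 ng of total RNA of a skin region of about 1 mm and sequenced for 75 cycles. The deposited lengths equal the gene's genomic span for 99.2% of 25124 genes. TPM times span gave whole reads, within 0.1 read, for all 101027 values checked (spans under 40 kb), against 21.8% with another library's constant. In all 336 nested gene pairs on opposite strands (over 200 reads) the outer gene had at least as many reads as the inner one, so counting took in both strands. The deposited table's other columns (position, strand, annotation) were used as given. The design had assumed lengths of transcripts, and the test was kept.

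Groups were compared with limma 3.58.1 in R 4.3.3 (variance trend, no covariate, two-sided, Benjamini-Hochberg), tested on simulated data. Genes below the filter had an exact permutation test, unadjusted. Computed reads were fitted with limma voom (at least 10 reads in at least 4 libraries). Members and lists were chosen with earlier results of these data known. Named were all members, up to 4 tested genes with the smallest p per list described, direct partners, the 3 closest genes per tested member, and genes within 10 kb; a few others are given for their role. Alternatives were other pseudocounts, filters, scalings and variance settings, covariates, a replicate block and leaving out each library. Of 36 library pairs, 0 held identical values. Lag3 and Cd226 had no sequence entry used here. A result of 1 listed gene is not reported here.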

Additional observations from a re-analysis of the deposited data

Results flagged for a closer look

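Lag3 in replicate 3 of the bacterium alone, at 4.37 TPM, lay far from the other 4 libraries of its group. Its gap to the nearest library was 0.837 of the group's whole range, above the critical value of 0.71 for 5 libraries. It was the 1 such case among 60 groups of values examined, and chance gives about 1 in 20 groups. It rests on 51 reads, against 25 to 27 reads in the other 4 libraries.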

How the results depend on the processing

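The count of 4 members higher held at 4 or 5 under other pseudocounts, no filter, 3 other scalings, 2 other variance settings and leaving out each library. It was 2 of 3 tested with a filter of 5 TPM, 0 with the muscle covariate and 2 with the hair follicle covariate. On computed reads the count of 8 became 1 with the muscle and 3 with the hair follicle covariate, and 6 to 8 on leaving out a library. Members called lower stayed at 0 in all fits. The fold change of Lag3 changed sign with the hair follicle covariate (-0.09, and -0.07 on reads) and ran from -0.02 to 0.17 on leaving out a library. The cause was not tested. Same-numbered libraries of the groups did not deviate together (r between -0.09 and 0.02). So few pairs cannot exclude that the numbers pair them, and the labels do not say. Replicate 5 exists only with the bacterium alone, so a block on the replicate number takes that library out of the comparison. With this block, 5 members were higher and Cd274 passed limma (0.98, adjusted p = 0.0250). Its fold change was also 0.98 on leaving out replicate 5 of the bacterium alone. Tigit did not pass limma voom with the block (adjusted p = 0.0789). With it 593 genes in all were higher and 88 lower, and 779 lower on reads. Over all genes, 1124 higher became 706 without anti-CTLA-4 replicate 3. The 704 lower became 1313 with a common median, 1429 with quantile normalization, and 337 to 414 on leaving out any of 6 libraries. With the muscle and hair follicle covariates 1 and 3 genes were lower in limma, and on reads 361 and 507 were higher and 137 and 84 lower. Pdcd1, at 2 to 34 reads a library, and Lag3, at 23 to 51, are limited most by depth.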

Other observations

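The ratio of Cd226 to Tigit reads, chosen after the values were seen and not tested, was 4.24, 6.96, 5.53 and 4.57 with anti-CTLA-4, against 3.60, 3.69, 3.79, 1.99 and 2.98 with the bacterium alone. Every anti-CTLA-4 library had the higher ratio of the activating to the inhibitory receptor. The ratio of Cd274 to Pdcd1lg2 reads overlapped between the groups, at 5.70 ± 0.504 with anti-CTLA-4 and 7.30 ± 2.39 with the bacterium alone (SD, n = 4 and n = 5). Near the members, Ptms, which lies 1970 bases from Lag3, had 208 ± 12.7 TPM with anti-CTLA-4 and 195 ± 11.3 TPM with the bacterium alone (SD, n = 4 and n = 5; limma adjusted p = 0.431). Plgrkt, 5567 bases from Cd274, had 15.1 ± 0.417 TPM with anti-CTLA-4 and 13.1 ± 0.973 TPM with the bacterium alone (limma adjusted p = 0.0809). A230083G16Rik, 5158 bases from Lag3, had 18.6 ± 2.64 TPM with anti-CTLA-4 and 16.2 ± 1.60 TPM with the bacterium alone (limma adjusted p = 0.315). Mir568, 8124 bases from Tigit, held 2 reads in all with anti-CTLA-4 and 6 with the bacterium alone, and Neu4, 9975 bases from Pdcd1, held 0 reads with anti-CTLA-4 and 2 with the bacterium alone.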
